A study of Mus musculus with 4 samples.

Results

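The genes described here are the classical and related cadherins with a numbered Cdh name, the non-clustered protocadherins and the 3 seven-pass Celsr cadherins of the mouse. They were chosen by gene name alone, as every gene called Cdh, Pcdh or Celsr followed by a number, Pcdh11x included, which gave 38 of the 56883 genes in the expression table. By their known families, 5 were type I classical, 13 type II classical and 5 divergent cadherins, 4 were delta-1, 5 delta-2 and 3 other protocadherins, and 3 were Celsr genes. The clustered protocadherins, with Greek letters in their names, were not part of the set.

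Cadherins are cell surface proteins that bind each other across neighbouring cells in a manner that depends on calcium. Classical cadherins bind p120 catenin and beta-catenin with their cytoplasmic tails, and alpha-catenin links the complex to actin. The delta-protocadherins carry more extracellular cadherin repeats than the classical cadherins, and several of them use their tails to recruit the WAVE complex, a driver of branched actin, while the Celsr proteins act with Frizzled and Vangl proteins in planar cell polarity. In the developing forebrain these families take part in the sorting of neuron types, the migration of neurons and the growth of axons.

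Total RNA was sequenced from tdTomato-positive cells sorted from the basal telencephalon at E14.5, in 2 libraries of each genotype. Both groups carried Sst-Cre and the tdTomato reporter. Control cells had the genotype Sst-Cre/tdTomato, and Dnmt1 KO cells had the genotype Sst-Cre/tdTomato/Dnmt1 loxP2, in which Cre expressed from the Sst locus deletes loxP-flanked Dnmt1 sequence. Each library came from cells pooled over several embryos, whose sex was not considered. A p-value therefore measures the spread between pools and not between embryos. In limma that spread is mostly a variance shared over genes of similar level (13.1 prior degrees of freedom). In such bulk samples fewer cells of a type and less RNA per cell cannot be told apart.

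Recovered reads came to 6970247 to 8376711 per library. Dnmt1 itself, counted over the whole gene, had 2238 and 2341 normalized counts in the control and 2164 and 2210 in the Dnmt1 KO libraries (limma log2 fold change -0.066, adjusted p = 0.461), and a whole-gene count cannot tell floxed from deleted transcripts apart. In other samples, the paper reported reduced DNMT1 staining in tdTomato-positive cells at E14.5. It also reported lower Dnmt1 transcript counts in cells sorted from the E14.5 cortex. The labelled cell type was checked against markers. All 11 SST interneuron markers listed were present, and Sst had 5580 and 5963 normalized counts in the control and 8303 and 7825 in the Dnmt1 KO libraries. Markers of other cells were present too and differed between the genotypes. The SST interneuron markers summed to 22205 and 22234 in control and 32753 and 33054 in Dnmt1 KO libraries, and 10 of 11 were higher. The 10 radial glia and cycling markers summed to 14283 and 14321 against 8930 and 9103, with 8 lower and Sox2 higher. The 11 endothelial and mural markers summed to 652 and 686 against 289 and 311, with 9 of 10 tested lower and none of the 11 at 0 in all libraries. Excitatory lineage markers were lower in 6 of 8 cases and markers of other non-neuronal cells in 6 of 11 tested.

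Normalized counts of most non-clustered protocadherins and of Celsr3 were higher in Dnmt1 KO cells, and lower for Celsr1, Cdh5, Cdh6, Cdh23 and Pcdh12, while the most abundant member per kb of transcript, Cdh2, was measured at nearly the same level in both genotypes. Of the 38 genes, 31 reached the minimum mean of 10 normalized counts and were tested, 21 of them with means from 100 upwards. With limma on log2(normalized count + 1) and Benjamini-Hochberg adjustment over the 14323 genes tested, 9 members were higher and 5 lower at an adjusted p below 0.05, and 17 were not called. In the whole table, 8.3% of the genes tested were called higher and 8.99% lower. The median log2 fold change of the 31 members was 0.11, against -0.0033 for all genes tested. In 16 members both Dnmt1 KO libraries lay above both control libraries and in 9 below, where the shares over all genes tested were 28.4% and 29.0%, or 57.4% in either direction. DESeq2 on the recovered reads called 8 members higher and 4 lower, against 4.47% and 4.8% of all genes tested, and it gave no adjusted p for Pcdh12 and Cdh20. All 9 higher members belonged to the protocadherins or to Celsr, with 8 of the 12 non-clustered protocadherins called higher and 1 lower, and a median of 0.51. None of the 14 type I and type II cadherins tested was called higher by limma, by edgeR or by DESeq2, with 1 of them (Cdh7) at an unadjusted limma p below 0.05.

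**Figure D1:**
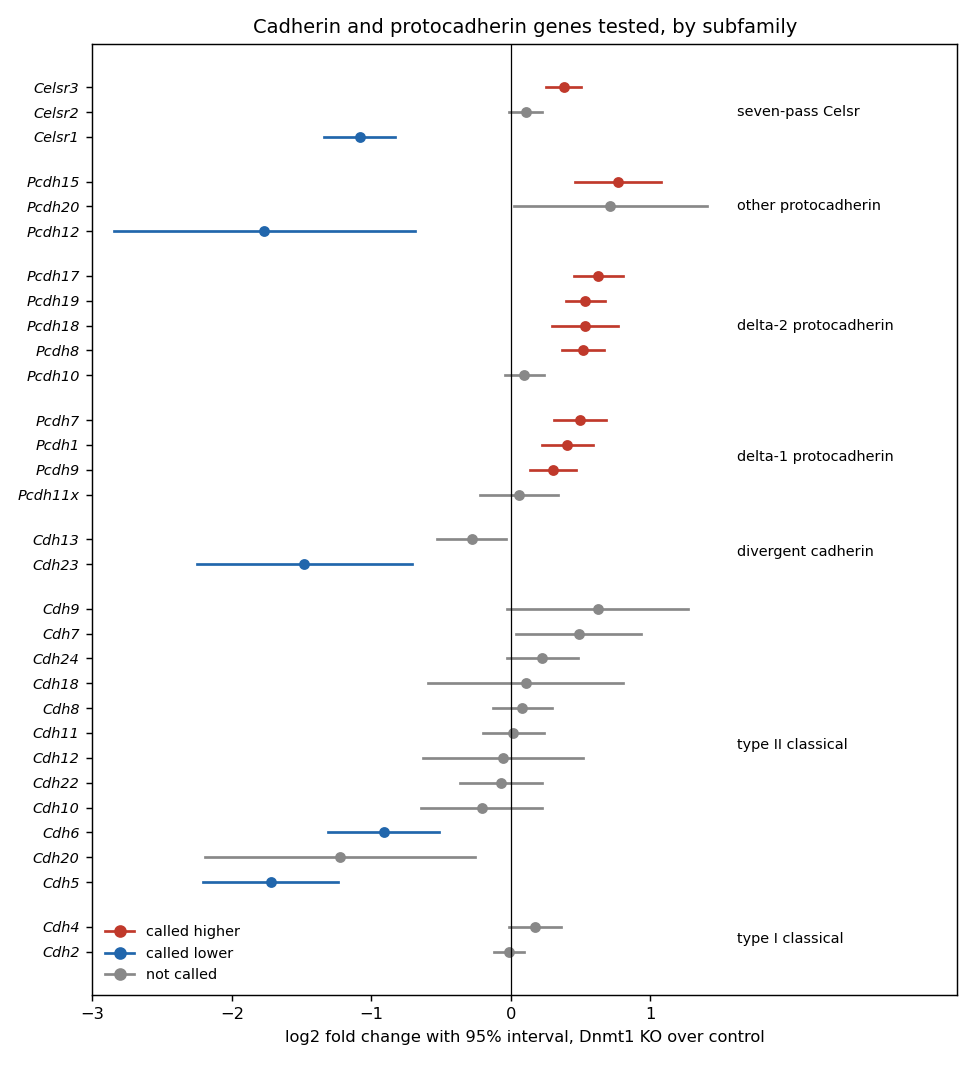
Log2 fold change of each of the 31 members tested, Dnmt1 KO over control (x axis, log2 of normalized count + 1), with the 95% interval from limma as a bar, in rows grouped by subfamily. Red points were called higher, blue points lower and grey points were not called. Delta-protocadherins lie to the right of 0, and the intervals are widest for the thinly counted Pcdh12 and Cdh20.

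Among type I cadherins, Cdh2 (N-cadherin), the adhesion molecule of the neuroepithelium and of young neurons, had 2850 and 2857 normalized counts in the control and 2821 and 2833 in the Dnmt1 KO libraries. The log2 fold change was -0.014 with a 95% interval from -0.12 to 0.09. Cdh4 (R-cadherin) had 708 and 603 in control against 725 and 751 in Dnmt1 KO cells. Its Dnmt1 KO libraries were the higher ones, but the log2 fold change of 0.17 (interval -0.01 to 0.36) was not called. Cdh1 (E-cadherin), Cdh3 (P-cadherin) and Cdh15 (M-cadherin), which belong to epithelia and muscle, had 0 to 11 reads per library and were under the minimum.

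Type II cadherins mark subsets of brain cells, and 12 of the 13 were tested (Cdh19 had 0 to 2 reads per library), with 0 higher, 2 lower and a median log2 fold change of -0.02. The gene with the larger change was Cdh5 (VE-cadherin), the junctional cadherin of endothelium (chromosome 8, 104828231 to 104871143, GRCm39). It had 121 and 121 normalized counts in the control and 42.4 and 30.6 in the Dnmt1 KO libraries. Both Dnmt1 KO libraries were far below the control, and the log2 fold change was -1.72 (SE 0.23, limma's adjusted p = 9.3e-05). The endothelial marker Pecam1 fell by 1.27 on the log2 scale and Kdr, the main VEGF receptor, by 1.03. The log2 fold change of Cdh5 differed from that of Pecam1 by -0.45 (SE 0.34) and from that of Kdr by -0.70 (SE 0.32). The part of the endothelial markers in the result for Cdh5 was not tested.

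Cdh6, a cadherin of forebrain compartments, had 156 and 121 normalized counts in the control and 72.0 and 73.2 in the Dnmt1 KO libraries (log2 fold change -0.91, SE 0.19, limma's adjusted p = 0.0031). Without control replicate 1, its adjusted p was 0.0655. The other 4 type II genes with a mean above 100 were not called. Cdh8 had 379 and 410 in control against 396 and 440 in Dnmt1 KO cells (0.08, interval -0.13 to 0.29). Cdh11 had 355 and 346 against 336 and 375 (0.018, interval -0.20 to 0.24). Cdh22 had 169 and 185 against 173 and 164 (-0.07, interval -0.36 to 0.22). In each of these 3 genes the genotypes overlapped. Cdh24 lay higher in both Dnmt1 KO libraries, with 206 and 213 against 240 and 250 (0.22, interval -0.03 to 0.48).

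The other 6 type II genes tested had means between 10 and 100, and none was called. Cdh7 had 57.3 and 59.2 in control against 76.9 and 87.4 in Dnmt1 KO cells (log2 fold change 0.49, limma's adjusted p = 0.132). Cdh9 had 28.6 and 23.5 against 40.4 and 40.4 (0.62). Cdh20 moved the other way, with 19.7 and 30.6 against 12.8 and 7.65 (-1.23, limma's adjusted p = 0.0781), and it was called only when Dnmt1 KO replicate 1 was left out (0.0328). The remaining Cdh10, Cdh12 and Cdh18 had log2 fold changes of -0.21 (interval -0.65 to 0.22), -0.058 (interval -0.63 to 0.51) and 0.11 (interval -0.59 to 0.81).

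Of the divergent cadherins, 2 of 5 were tested. Cdh13 (T-cadherin), which lacks a cytoplasmic tail and is held to the membrane by a lipid anchor, had 296 and 266 normalized counts in control against 231 and 232 in Dnmt1 KO cells, a log2 fold change of -0.28 (interval -0.53 to -0.03) that was not called (limma's adjusted p = 0.115). Cdh23, known from the tip links of hair cells, had 106 and 70.4 against 49.3 and 18.6. The libraries of each genotype differed widely among themselves, and the call (-1.48, SE 0.36, limma's adjusted p = 0.0101) was lost without control replicate 1 (adjusted p = 0.134). Leaving out 1 library moved its log2 fold change between -2.16 (without Dnmt1 KO replicate 1) and -0.80 (without Dnmt1 KO replicate 2). Pcdh15, its partner in the tip link, moved the other way, as given further on. Cdh16, Cdh17 and Cdh26 had 0 to 3 reads per library.

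Of the 5 delta-2 protocadherins, Pcdh8, Pcdh17, Pcdh18 and Pcdh19, were higher in Dnmt1 KO cells by 0.52 to 0.62 on the log2 scale, and the group's median was 0.53. Pcdh17, known from growing axons and synapses, had 536 and 493 normalized counts (515 ± 30.4, SD, n = 2) in control and 815 and 772 (794 ± 29.9, SD, n = 2) in Dnmt1 KO cells. It rose by 0.62 on the log2 scale (SE 0.08, limma's adjusted p = 9.0e-05). Pcdh19, an X-linked gene that is mutated in a form of epilepsy, had 1190 and 1077 against 1666 and 1615 (0.53, SE 0.07, limma's adjusted p = 5.4e-05). In both genes the smallest Dnmt1 KO value was well above the largest control value.

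Pcdh8, whose protein takes part in the removal of N-cadherin from the surface of neurons, had 847 and 920 normalized counts in control against 1228 and 1303 in Dnmt1 KO cells (log2 fold change 0.52, SE 0.071, limma's adjusted p = 1.2e-04). Pcdh18 had 221 and 239 against 331 and 333 (0.53, SE 0.11, limma's adjusted p = 0.0036). All 4 calls held with any 1 library left out and with edgeR, DESeq2 and the removal of length and GC trends. With limma without a variance trend, which called 0 of all genes tested, these calls were lost. Pcdh10 (OL-protocadherin), which is required for axon growth in the basal telencephalon, did not follow these 4 genes. It had 1374 and 1243 normalized counts against 1377 and 1418, with the lower Dnmt1 KO value just above the higher control value, and a log2 fold change of 0.10 (interval -0.05 to 0.24, limma's adjusted p = 0.365). The log2 fold changes of Pcdh8, Pcdh17, Pcdh18 and Pcdh19 exceeded that of Pcdh10 by 0.42, 0.53, 0.43 and 0.44, each more than 3 SE of the difference, with the errors of the genes taken as independent. An antisense RNA, 2610316D01Rik, shares exonic sequence with Pcdh10 at a mean of 36.2 normalized counts, and whether reads of the stranded libraries were counted by strand is not given in the sources used here.

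The 30 bases just before the annotated start of each delta-2 gene are shown because DNMT1 methylates cytosine in CG pairs, and these 5 genes differ in the number they hold (RefSeq, GRCm38.p6, 5′ to 3′ on the gene's strand). Capitals mark each CG.
Pcdh8: tataaagaCGgaggCGgCGctCGccagCGc
Pcdh17: tttaagCGgCGgCGtgaggtgaatagagtc
Pcdh18: tggctggaagCGattcaacacaCGccaggc
Pcdh19: tCGggctctctcCGgctctctccagactct
Pcdh10: CGctgCGcaaaaacagagaagCGgagCGct
The windows lie on chromosome 14 from 79771313 to 79771342 (Pcdh8) and from 84443533 to 84443562 (Pcdh17), on chromosome 3 from 49757317 to 49757346 (Pcdh18) and from 45378368 to 45378397 (Pcdh10), and on the X chromosome from 133688994 to 133689023 (Pcdh19). They hold 5, 3, 2, 2 and 4 CG pairs in the order shown. Over the longer window of 250 bases before and 50 after the start, the counts were 14 in Pcdh8, 26 in Pcdh17, 23 in Pcdh18, 18 in Pcdh19 and 24 in Pcdh10, so that Pcdh10, which was not called, lay within the range of the other 4. Their methylation was not analysed here.

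Promoters of the same length were available for 24 of the 38 members, 27 in all since some genes have more than 1 start. CG pairs, which read the same on both strands, numbered 18 in the median member promoter and 7 in the median of all 32851 promoters. A ratio of observed to expected CG pairs above 0.6 was found in 14 of the 27, against 35.8% of all promoters. By call, 5 of the 8 higher genes with a promoter, 7 of the 12 uncalled genes and 0 of the 2 lower genes (Cdh6 and Cdh23) had a promoter above that ratio. The letters say nothing of the methylation state.

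Of the 4 delta-1 protocadherins, 3 were higher, and the median of the group was 0.35. Pcdh7, a protocadherin of growing axons, had 702 and 800 normalized counts in control against 1140 and 978 in Dnmt1 KO cells (log2 fold change 0.49, SE 0.09, limma's adjusted p = 0.0011). Pcdh1 had 613 and 682 against 809 and 907 (0.41, SE 0.08, limma's adjusted p = 0.0037). Pcdh9 had 794 and 724 against 977 and 894 (0.30, SE 0.08, limma's adjusted p = 0.0148). In all 3 genes the Dnmt1 KO libraries lay above both control libraries. The call of Pcdh9 was the least firm, since the adjusted p was 0.113 without control replicate 2, 0.109 without Dnmt1 KO replicate 1, 0.0511 with DESeq2 and 0.103 once length and GC trends were removed.

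Pcdh11x, the X-linked delta-1 gene, had 217 and 193 normalized counts against 227 and 200, and the genotypes overlapped (0.056, interval -0.22 to 0.33). The log2 fold changes of Pcdh1 and Pcdh7 exceeded that of Pcdh11x by 0.35 (SE 0.16) and 0.44 (SE 0.16), while for Pcdh9 the difference of 0.25 was under 2 SE. After removal of length and GC trends, Pcdh11x turned to -0.40 and was called (limma's adjusted p = 0.0432). The pools differed in Xist, the RNA of the inactive X chromosome, with 1402 and 1360 normalized counts in control and 3428 and 3311 in Dnmt1 KO libraries (higher by 1.29 on the log2 scale, limma's adjusted p = 1.8e-09), while 4 Y-linked genes had log2 fold changes of -0.31 to -0.10 and were not called. After removal of length and GC trends, 2 of these 4 Y-linked genes were called lower. The part of the sex makeup of the pools in the values of the X-linked Pcdh19 and Pcdh11x was not tested.

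**Figure D2:**
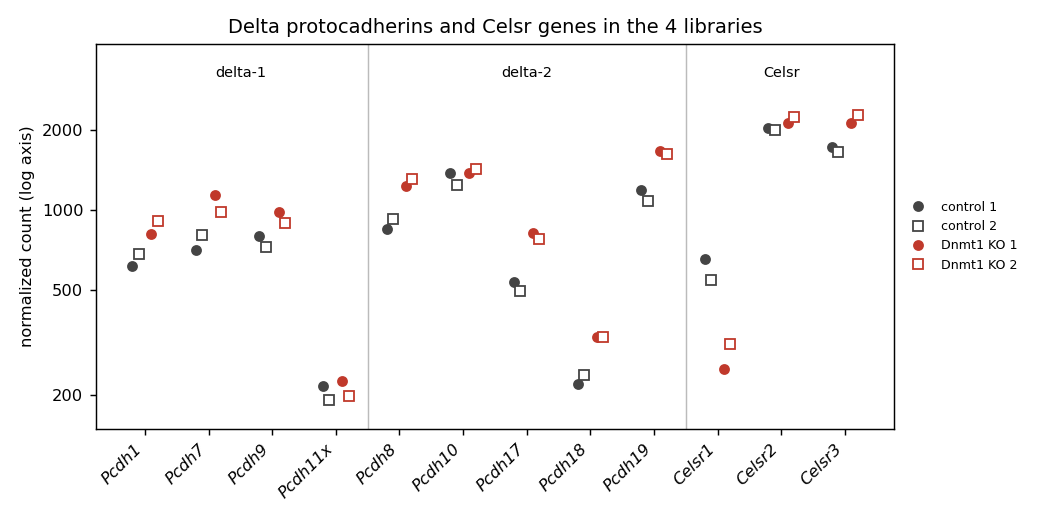
Normalized counts (log axis) of the delta-1 and delta-2 protocadherins and the Celsr genes in each of the 2 control (grey) and 2 Dnmt1 KO (red) libraries, with filled circles for replicate 1 and open squares for replicate 2. Red symbols lie above grey ones in Pcdh1, Pcdh7, Pcdh9, Pcdh8, Pcdh17, Pcdh18, Pcdh19 and Celsr3, below in Celsr1, and mix with them in Pcdh11x. They also lie above, by little, in Pcdh10 and Celsr2, which were not called.

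The 3 other protocadherins moved apart. Pcdh15, a partner of Cdh23 in the inner ear, had 112 and 119 normalized counts in control against 191 and 203 in Dnmt1 KO cells (log2 fold change 0.77, SE 0.14, limma's adjusted p = 0.0018), the largest increase among the called members. Pcdh20 had 23.3 and 42.9 against 43.4 and 63.4, with control libraries that differed widely (0.71, SE 0.33, limma's adjusted p = 0.154), and it was called only without Dnmt1 KO replicate 1 (0.0462). Its log2 fold change was 0.29 without control replicate 1 and 1.14 without control replicate 2. Pcdh12 (VE-cadherin-2), a protocadherin of endothelium, fell from 20 and 26 reads to 5 and 6, or from 17.9 and 26.5 to 4.93 and 6.56 normalized counts. Its log2 fold change of -1.77 (SE 0.51, limma's adjusted p = 0.0249) was close to that of Cdh5, and it differed from Pecam1 by -0.49 (SE 0.57). At these read numbers the call was lost without control replicate 1 (0.0557), without control replicate 2 (0.186) and without the minimum on counts (0.0527). The part of the endothelial markers, which were lower in 9 of 10 cases, was not tested here either.

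The 3 Celsr genes moved in different directions. Celsr1, known from dividing progenitors (chromosome 15, 85783126 to 85918438, GRCm39), had 654 and 544 normalized counts in the control and 252 and 314 in the Dnmt1 KO libraries. The level in Dnmt1 KO cells was 0.472 times that of control, with a log2 fold change of -1.08 (SE 0.12, limma's adjusted p = 1.6e-05). Celsr3, known from postmitotic neurons (chromosome 9, 108703519 to 108730168), had 1724 and 1643 against 2118 and 2263 (0.38, SE 0.06, limma's adjusted p = 3.8e-04). Celsr2 had 2035 and 1991 against 2114 and 2223, with both Dnmt1 KO libraries higher by little (0.11, interval -0.01 to 0.23, not called).

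The ratio of Celsr3 to Celsr1 normalized counts, not corrected for length, was 2.64 and 3.02 in the control and 8.42 and 7.22 in the Dnmt1 KO libraries. The log2 fold changes of these genes differed by 1.46 (SE 0.13), and those of Celsr3 and Celsr2 by 0.27 (SE 0.08). Nes and Vim, intermediate filament genes of radial glia, fell by 1.03 each on the log2 scale. Celsr1 differed from them by -0.052 (SE 0.13) and -0.055 (SE 0.13). The 10 radial glia and cycling markers ran from -1.03 (Nes) to 0.40 (Sox2) with a median of -0.80, and the cycling marker Mki67 stood at -0.50. The part of these markers in the result for Celsr1 was not tested. Celsr1 shares exonic sequence with Trmu on the opposite strand, which had a mean of 76.7 normalized counts.

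**Figure D3:**
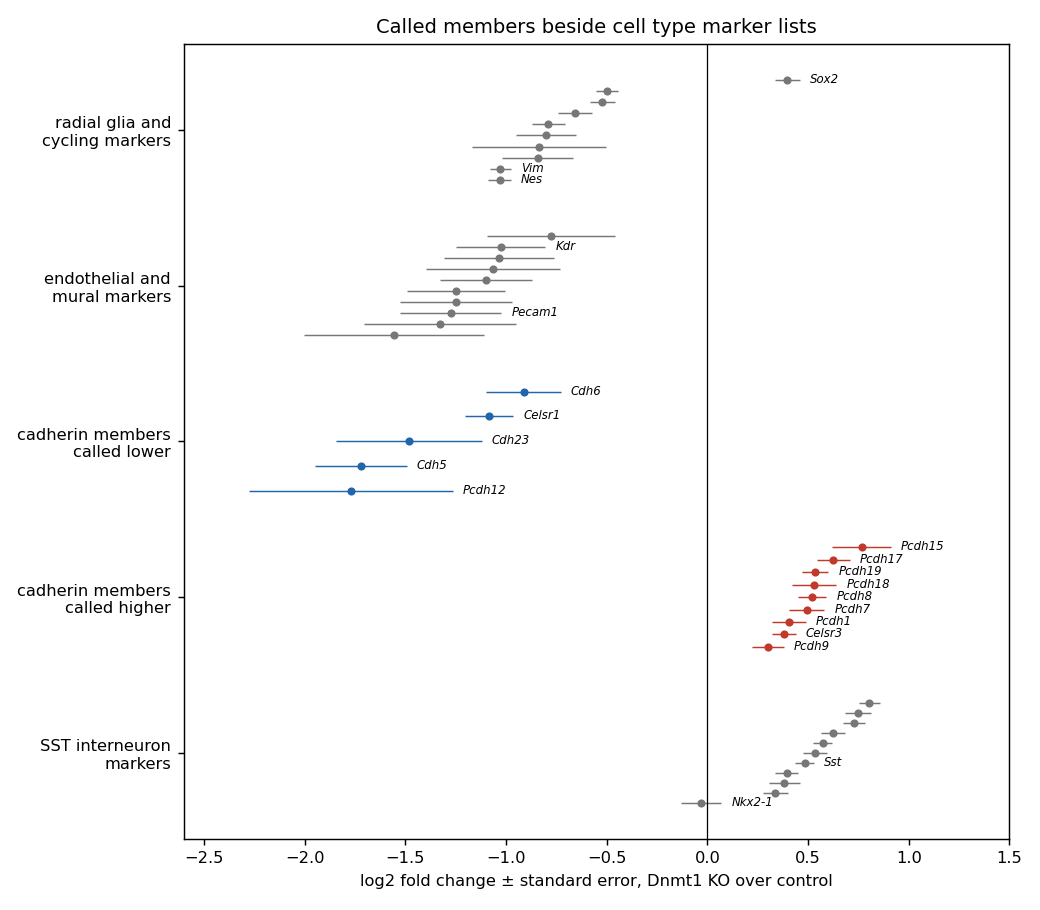
Log2 fold change ± SE (x axis, Dnmt1 KO over control) of the 9 members called higher and the 5 called lower beside SST interneuron, endothelial and mural, and radial glia and cycling markers. Each point is a gene. The higher members span 0.30 to 0.77 and lie in the range of most SST markers, and the lower members span -1.77 to -0.91, beside the endothelial and the radial glia markers. The excitatory lineage and other non-neuronal markers, with medians of -0.87 and -1.11, are not shown.

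Since Sst itself was higher by 0.48 on the log2 scale (SE 0.05), each member was also set against Sst. None of the 9 higher members differed from Sst by more than 2 SE of the difference in either direction, with values from -0.18 (Pcdh9) to 0.28 (Pcdh15). The SE of these differences was 0.08 to 0.15, and staying under 2 SE does not show that a member and Sst changed alike. The 11 SST interneuron markers ran from -0.03 (Nkx2-1) to 0.80 (Sox6) with a median of 0.53, and the members were set against Sst alone. The calls and the differences from Sst came from the same fit, so where called and uncalled members lie is largely set by the sorting. Of the 17 uncalled members, 12 lay more than 2 SE below Sst and 0 above. Among these, Cdh2 differed from Sst by -0.50 (SE 0.07), Pcdh10 by -0.39 (SE 0.08) and Celsr2 by -0.38 (SE 0.07). Per unit of Sst the delta-2 gene Pcdh18 was measured at 0.0396 and 0.0401 in the control and 0.0399 and 0.0426 in the Dnmt1 KO libraries. Other higher members did not stay level. Pcdh15 had 0.0200 and 0.0200 in control against 0.0230 and 0.0260, and Pcdh9 had 0.142 and 0.121 against 0.118 and 0.114. Cdh2 was measured at 0.511 and 0.479 against 0.340 and 0.362. The part of a change in the share of SST cells in these results was not tested.

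To compare levels between genes, normalized counts were divided by the length of the annotated transcript in kb. In control cells Cdh2 stood first with 580 ± 1.05 (SD, n = 2), followed by Pcdh8 with 221 ± 13.0, Pcdh10 with 184 ± 13.0 and Celsr2 with 181 ± 2.81. Pcdh10 and Celsr2 overlapped between the control libraries, whereas Cdh2 and Pcdh8 were each above the next gene in both. Celsr3 came next with 145 ± 5.00, above Pcdh9 (116 ± 7.58), Pcdh19 (109 ± 7.71) and Cdh4 (102 ± 11.5), which could not be put in order. At the lower end of the genes tested, Pcdh12 had 3.23 and 4.79 per kb and Pcdh20 had 1.81 and 3.33, so that both overlapped. In Dnmt1 KO cells Pcdh8 reached 307 and 326 and Pcdh19 reached 161 and 156 per kb.

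As shares of the members' summed counts per kb, delta-2 protocadherins made up 24.8% to 24.9% in control and 29.3% to 29.5% in Dnmt1 KO libraries, and delta-1 protocadherins 12.4% to 12.9% and 14.0% to 15.0%. Type I cadherins, nearly all of it Cdh2 and Cdh4, took 28.1% to 28.3% and 25.2% to 25.4%, and type II cadherins 14.1% to 14.8% and 12.4% to 12.5%. In these 4 subfamilies the genotypes did not overlap. They did not overlap either in the divergent cadherins (3.09% to 3.49% against 2.21% to 2.38%) and the other protocadherins (0.79% to 0.97% against 1.05% to 1.16%). The summed counts per kb of type I cadherins themselves were 692 and 676 in control and 688 and 694 in Dnmt1 KO libraries. The Celsr genes together took 15.3% to 16.0% against 14.6% to 15.4%, which overlapped. Shares within a sum move against each other, and no test was made on them. The delta-2 genes were the largest group in both Dnmt1 KO libraries and type I in both control libraries.

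**Figure D4:**
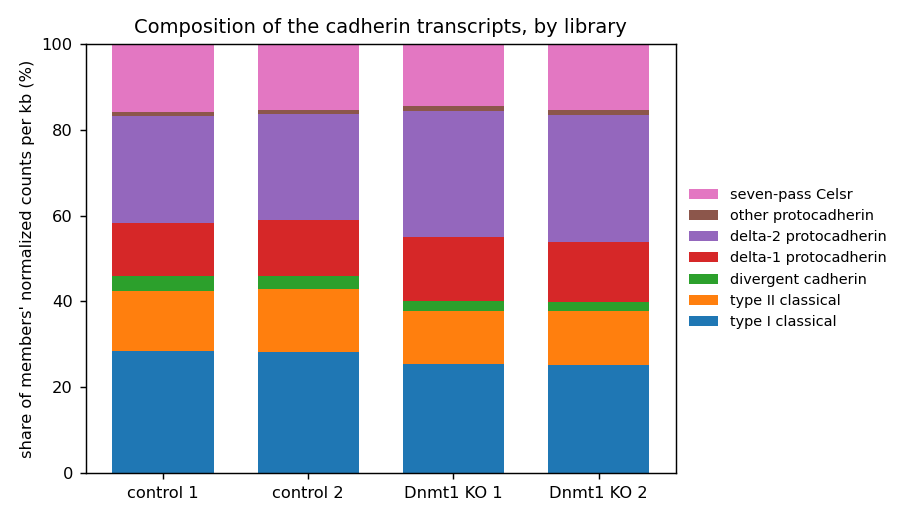
Share of the members' summed normalized counts per kb of transcript (y axis, %) held by each subfamily in each of the 4 libraries (stacked bars, 1 per library, to 100%). The delta-2 block is 24.8% to 24.9% of the control bars and 29.3% to 29.5% of the Dnmt1 KO bars.

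The proteins that work with these cadherins were followed as lists. The counts of each list stand beside 8.3% called higher and 8.99% called lower over all genes tested. Of 11 catenin and adherens junction genes tested, 2 were higher and 5 lower. DESeq2, with 4.47% and 4.8% of all genes tested, called 2 of them higher and 2 lower. It did not call Ctnnd1, Arvcf and Jup (DESeq2 adjusted p 0.115, 0.132 and 0.214). Ctnna1 (alpha-E-catenin), the widely expressed form, had 590 and 626 normalized counts in control against 339 and 390 in Dnmt1 KO cells (log2 fold change -0.74, limma's adjusted p = 8.2e-05). Ctnna2 (alpha-N-catenin), the neuronal form, had 2640 and 2629 against 2928 and 3187 (0.21, limma's adjusted p = 0.0130). The ratio of Ctnna2 to Ctnna1 counts was 4.48 and 4.20 in the control and 8.63 and 8.17 in the Dnmt1 KO libraries, and their log2 fold changes differed by 0.95 (SE 0.11). In the p120 family, Ctnnd1 at -0.30 and Arvcf at -0.27 were lower, the neuronal Ctnnd2 at 0.21 was higher, and Pkp4 at 0.15 was not called. Ctnnd1 and Ctnnd2 differed by 0.50 (SE 0.10). The separate calls of Ctnnd1, Arvcf, Ctnnd2 and Ctnna2 were lost when some libraries were left out, and Arvcf then ranged from -0.39 without Dnmt1 KO replicate 2 to -0.15 without Dnmt1 KO replicate 1. Ctnnb1 (beta-catenin), with a log2 fold change of -0.32, kept its call without any 1 library, and Jup (plakoglobin), with -0.37, lost it without each of them.

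Of 12 genes of the WAVE complex and other partners of delta-protocadherins, 1 was called, where 17.3% of all genes tested were called in either direction. Wasf1, the neuronal WAVE protein, had 824 and 828 normalized counts in control against 979 and 981 in Dnmt1 KO cells (log2 fold change 0.25, limma's adjusted p = 0.0225), a call that was lost without each of the 4 libraries (adjusted p 0.067 to 0.086) and with DESeq2 (0.0995). The median of this list was 0.07, and 0 members were lower with limma or edgeR, with 1 at an unadjusted p below 0.05. Of 12 planar cell polarity genes tested, Prickle2 (0.34) and Fzd3 (0.24), the Frizzled that works with Celsr3 in axon tracts, were higher. Fzd6 (-2.18), with 28.6 and 25.5 normalized counts in control and 4.93 and 5.46 in Dnmt1 KO cells, and Ankrd6 (-0.86) were lower. Of this list DESeq2 called 0 genes higher and only Ankrd6 lower. Its adjusted p was 0.0687 for Prickle2 and 0.0511 for Fzd3, and it gave none for Fzd6. After removal of length and GC trends, Fzd3 stood at -0.034 and was no longer called. Leaving out a library ended the calls of Prickle2, Fzd3 and Fzd6 in 1 or more of the 4 cases, but not that of Ankrd6. Fzd3 stood at 0.15 without control replicate 2.

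Among the giant Fat and Dachsous cadherins and the calsyntenins, 9 were tested, with 2 higher and 2 lower by limma and by DESeq2. For this list and the next ones, the shares over all genes tested were again 8.3% and 8.99% with limma. With DESeq2 they were 4.47% and 4.8%. Dchs1, which binds Fat4 across cells, had 2695 and 2578 normalized counts in control against 3472 and 3411 in Dnmt1 KO cells (log2 fold change 0.38, limma's adjusted p = 8.6e-05). Clstn1 was higher by 0.25. Fat1 had 1599 and 1483 against 1058 and 1126 (-0.50, limma's adjusted p = 1.1e-04), and Fat3 had a log2 fold change of -0.27 that was not called without control replicate 1 (adjusted p = 0.0639). The log2 fold changes of Dchs1 and Fat1 differed by 0.88 (SE 0.08). None of the 14 desmosomal cadherins and Cdhr genes reached the minimum count, so none was tested. Of 14 tested proteases and nectin-like genes, Cadm3 (0.23) and Cadm4 (0.21) were higher and Nectin3 (-0.79) was lower, and each of these calls was lost without at least 1 library. DESeq2 kept Nectin3 as lower but called 0 genes of this list higher (DESeq2 adjusted p 0.120 for Cadm3 and 0.0626 for Cadm4). Nectin3 stood at -0.43 without control replicate 2.

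Cadherin genes are long, with a median span of 145 kb for the members tested against 28.7 kb for all protein-coding genes tested. Across the 31 members, which share the same 4 libraries, Spearman's rho between the log2 fold change and the gene span was -0.20 and that with transcript length 0.22, given as a description. With the dependence of each library on transcript length and GC content taken out by splines, 8 members were higher and 6 lower, and over all genes 7.85% and 8.8% were called. Pcdh9 was lost from the 14 calls, the other 13 were kept, and Pcdh11x was added as lower.

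**Figure D5:**
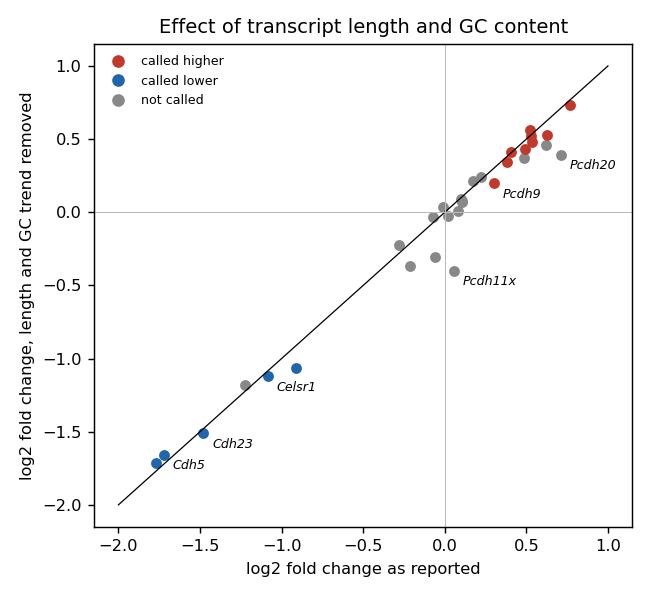
Log2 fold change of the 31 members tested as reported (x axis) and after removal of the trend over transcript length and GC content in each library (y axis), with the line of equality. Most genes lie near the line, and Pcdh11x moves from 0.056 to -0.40.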

How the data were processed

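Total RNA from sorted cells of 4 pooled samples, 2 per genotype, was analysed, with groups taken from the sample labels. Per the submitters' processing notes and the methods, the authors used Trim Galore, STAR, Salmon and DESeq2 with GRCm39. The authors deposited a signal in the form of normalized counts, in which each gene's whole reads are scaled by the size factor of the library (1.12, 0.980, 1.01 and 0.915). All 89965 values above 0 (100%) were whole to within 0.0001 of a read. Libraries were made with a stranded kit, but the strand setting of the counting is not given in the sources used here. An Ensembl release is listed among the study's resources without being tied to these counts.

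A minimum mean of 10 normalized counts was set. The test was limma 3.58.1 (R 4.3.3) after the transform log2(normalized count + 1), with a prior variance following mean expression and genotype as the only term, followed by Benjamini-Hochberg adjustment over 14323 genes at 0.05. A fold change on this scale understates that of low genes. The 95% intervals came from the same fit. On the recovered reads edgeR 4.0.16 called 1226 genes higher and 1302 lower, and DESeq2 1.42.0 called 640 and 687. An exact permutation test of 2 against 2 libraries cannot go below 0.333. Differences between genes used the combined SE of both. Gene positions and transcript lengths came from GENCODE for GRCm39 and promoters from RefSeq for GRCm38.p6. Python 3.11.15 and matplotlib 3.10.9 were used for summaries and figures.

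The rule named all members, with full values for those with a mean of at least 100 or a call, and up to 3 called genes in each direction from each partner list, plus a defining member where background needs it. In the catenin list, Ctnnd1, Arvcf and Pkp4 were added as members of the p120 family, the last 2 after their values were seen. The members and lists were chosen with earlier results of these data known. Lists are described by counts and medians without a set test. The steps were tested on simulated data. The alternatives were a pseudocount of 0.5 or 10, no minimum or a mean of at least 50, TMM, quantile normalization, no variance trend, edgeR, DESeq2, limma-voom, removal of length and GC trends with splines of 5 degrees of freedom, a replicate block, and leaving out each library, where limma takes the lone library to vary like the others.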

Additional observations from a re-analysis of the deposited data

How the results depend on the processing

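Of the members, 9 were higher and 5 lower with the replicate number as a block, 8 and 6 with the block together with the removal of length and GC trends, and the block alone changed no call among the members and genes named. Replicate 1 or 2 is shared by the labels of both genotypes without a stated meaning, and the correlation of the deviations of same-numbered libraries was -0.0847, so the numbers were not taken as pairs. Leaving out each library gave 8 to 9 higher and 2 to 6 lower members. Without control replicate 1 the lower members came to 2, as Cdh6, Cdh23 and Pcdh12 were lost. Limma without a variance trend called 0 higher and 0 lower members, with 10 and 5 at an unadjusted p below 0.05 and a smallest adjusted p of 0.0616, and it called 0 of all genes tested, whereas edgeR gave 9 and 5 and DESeq2 8 and 4. The other settings gave 8 to 9 higher and 4 to 6 lower members.

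The sign turned in genes that were not called and in Fzd3, which was called higher at 0.24. With length and GC trends removed, with or without the block, the log2 fold change was 0.035 for Cdh2, -0.025 for Cdh11, -0.40 for Pcdh11x and -0.034 for Fzd3, and with quantile normalization it was 0.064 for Cdh12. Over the fits without 1 library, it ranged from -0.060 to 0.096 for Cdh11, from -0.25 to 0.13 for Cdh12, from -0.059 to 0.27 for Cdh18 and from -0.035 to 0.15 for Pcdh11x. The cause was not tested. Rescaling with TMM shifted the median gene by -0.012 and quantile normalization by 0.045. Of the 14 calls, 10 held in all 4 fits without a library. Depth limits the genes with a mean of 10 to 100, 10 of the 31 tested, where the SE of the log2 fold change was 0.20 to 0.51.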
